A study of Sus scrofa with 36 samples.

Results

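The adipocyte genes, 10 genes by which fat cells are known, were followed in the thyroid of 36 pigs: ADIPOQ, LEP, FABP4, PLIN1, LIPE, PPARG, CIDEC, CIDEA, LPL and PNPLA2. A probe belonged to a gene when the array's annotation gave that gene as its name or in round brackets in its description, and 45 of 60305 probes did. Of these 45 probes, 43 were bright enough to be tested, so all 10 genes were measured. RNA of the thyroid gland was hybridised on 1-colour Agilent arrays, 1 per pig. The pigs were castrated growing males of 3 genetic types, Creole (CR), Large White (LW) and their F1 cross (F1), with 12 pigs per type. Of each type, 6 pigs were slaughtered at 24 °C, and the other 6 after 4 or 5 days in a hot room by the study's methods (5 in the protocol text), which the sample labels give as 30 °C and the protocol text as 32 °C. The hot pigs were slaughtered later than the 24 °C pigs, so temperature and the time of slaughter cannot be told apart. Litter, sire, pen, slaughter day and age were not in the labels and were not used, so that breed and the few families behind each breed cannot be told apart.

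Adipocytes store fatty acids as triglyceride in 1 large droplet and release them again on demand. Lipoprotein lipase (LPL) frees fatty acids from blood lipoproteins, FABP4 carries them inside the cell, perilipin 1 (PLIN1) and the CIDE proteins (CIDEA, CIDEC) coat and enlarge the droplet, and the lipases PNPLA2 and LIPE empty it. PPARG is the nuclear receptor that drives fat cell formation, while adiponectin (ADIPOQ) and leptin (LEP) are hormones that fat cells secrete. The thyroid is a gland of hormone-producing thyrocytes, and fat lies around it and between its lobules. In whole gland RNA, fewer fat cells and less RNA per fat cell cannot be told apart.

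Between 72.8% and 80.3% of the probes on an array were well above background, and no spot was saturated. The 36 arrays lay on 5 slides, 4 of which held all 6 groups. The thyroid label could be checked on 5 tested thyrocyte genes: the leading probe of TG, the precursor of thyroid hormone, had a mean log2 intensity of 18.80, and that of SLC5A5, the iodide transporter, 16.72. None of the 5 was called between breeds or temperatures in the tests used below, and DIO1 and SLC26A4, also of thyrocytes, were too dim to be tested. A leading probe is the tested probe of a gene with the highest mean intensity, and values are log2 intensities after quantile normalisation. Levels of different genes are not compared, since each probe binds with its own strength. The number of pigs limits the precision. A probe was called when limma's p, adjusted over all 46222 tested probes by the Benjamini-Hochberg method, was under 0.05.

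The probes are single strands of 60 bases, given here as the array's annotation lists them. The first set is shown because probes of the same gene gave different answers or shared their sequence. For leptin, a pair of probes at separate spots carry an identical sequence, with the shared bases in capitals:
LEP O15019: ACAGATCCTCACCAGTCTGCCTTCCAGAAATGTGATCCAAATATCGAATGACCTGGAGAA
LEP A_72_P442233: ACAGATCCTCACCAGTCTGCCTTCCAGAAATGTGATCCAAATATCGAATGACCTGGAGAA
Spot O15019 was well above background on 34 of 36 arrays, and spot A_72_P442233 on 14, so that the first was tested and the second was not. The cause of the gap was not tested.

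For PPARG, the leading probe A_72_P441339 overlaps A_72_P636927, and capitals mark the longest run that both share, 53 bases:
PPARG A_72_P441339: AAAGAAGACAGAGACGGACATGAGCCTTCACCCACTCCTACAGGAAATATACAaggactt
PPARG A_72_P636927: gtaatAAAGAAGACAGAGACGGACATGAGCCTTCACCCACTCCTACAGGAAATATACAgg
In all, 12 of the 45 probes shared a run of 30 bases or more with another probe of the same gene, in 8 pairs, and no such pair joined different genes. Probes of a gene are repeated readings of the same RNA and not replicates.

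CIDEA and CIDEC are related proteins, and their probes below are shown to see how alike they are. Capitals mark bases that are identical in the best alignment without gaps, 30 of 39 aligned bases:
CIDEA A_72_P078041: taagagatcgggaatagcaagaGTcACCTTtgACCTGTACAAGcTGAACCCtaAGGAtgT
CIDEC O9141: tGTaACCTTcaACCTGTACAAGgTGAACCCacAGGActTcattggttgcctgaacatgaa
The longest run they share is 11 bases. The last set holds probes that were not called where the leading probe of their gene was (LIPE, PNPLA2) and the dimmest probes of ADIPOQ and PLIN1:
LIPE A_72_P551986: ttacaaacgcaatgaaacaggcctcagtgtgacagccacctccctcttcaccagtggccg
PNPLA2 A_72_P178071: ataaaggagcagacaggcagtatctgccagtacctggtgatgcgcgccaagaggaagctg
PNPLA2 A_72_P076816: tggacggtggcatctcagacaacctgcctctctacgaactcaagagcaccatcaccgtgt
ADIPOQ A_72_P767053: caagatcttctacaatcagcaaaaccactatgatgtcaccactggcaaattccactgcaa
PLIN1 A_72_P077326: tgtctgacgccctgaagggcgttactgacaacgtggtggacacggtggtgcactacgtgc
What each of them read is given with its gene below.

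Adiponectin (ADIPOQ), the droplet proteins PLIN1, CIDEA and CIDEC and the lipases LIPE and PNPLA2 were called lower in Large White than in Creole thyroids by their leading probes. Of these, LIPE was called only just, and the other PNPLA2 probes lay near 0. LEP, FABP4, PPARG and LPL were not called by their leading probes. Between F1 and Creole, no adipocyte gene was called. Of the 43 tested probes, 24 were called between LW and CR, and all 24 were lower in LW. Over the whole array, 12.9% of tested probes were called in this comparison and 5.73% were called lower. By leading probe, 6 of the 10 genes were called, all lower in LW (ADIPOQ, PLIN1, CIDEA, CIDEC, LIPE and PNPLA2), where 6.03% of the leading probes of 10711 named genes were called lower. The median change of the 10 leading probes was −0.48 on the log2 scale, against 0.00 over all tested probes. Of the 43 probes, 3 (1 of PLIN1 and 2 of LPL) passed the brightness filter in fewer than 6 groups, and without them 21 of 40 were called.

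**Figure D1:**
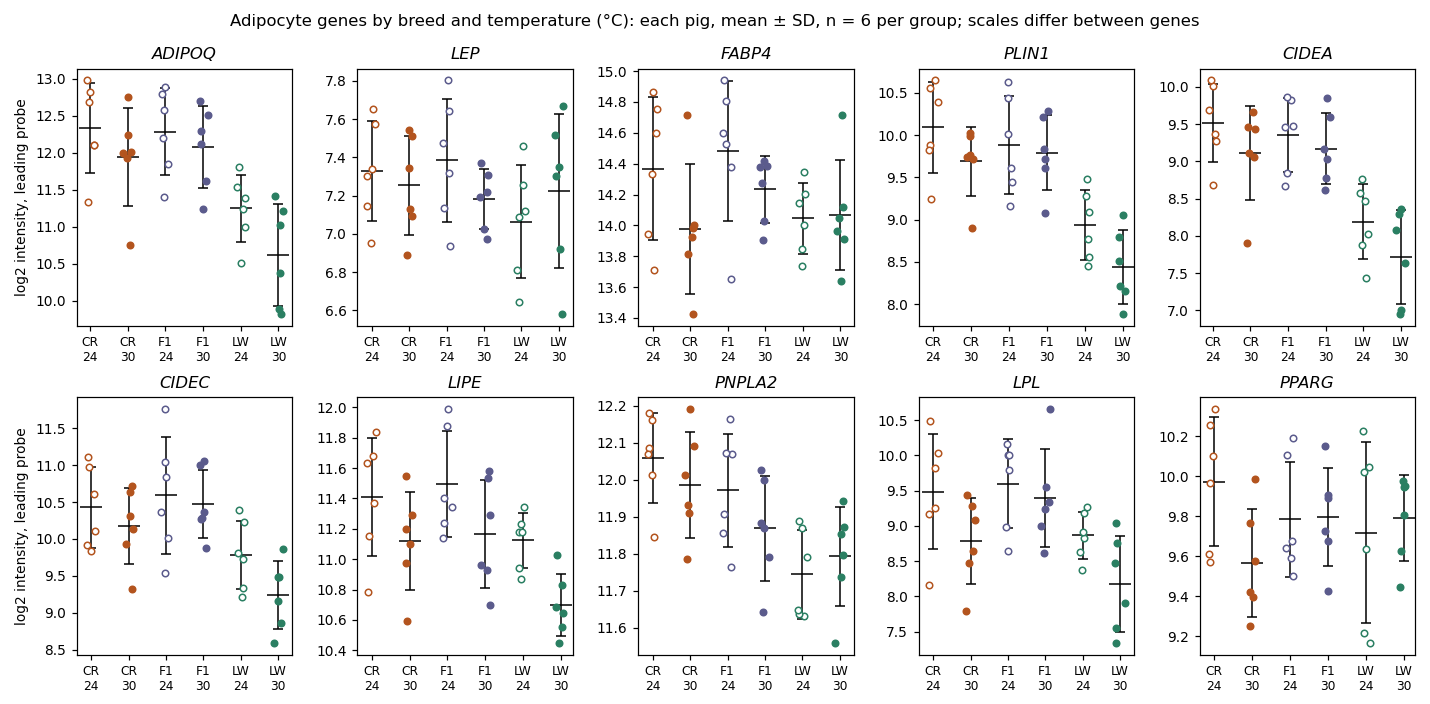
Log2 intensity of the leading probe of each adipocyte gene (vertical axis, own scale per gene) in every pig, by breed and temperature in °C (horizontal axis); open points are 24 °C, filled points 30 °C, bars the mean ± SD of 6 pigs. In ADIPOQ, PLIN1 and CIDEA the LW pigs sit below most CR and F1 pigs, while LEP, FABP4 and PPARG overlap in all 6 groups.

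Adiponectin, a hormone of fat cells that raises insulin sensitivity, gave a log2 intensity of 10.75, 12.10 and 12.98 (lowest, median and highest) in the 12 CR pigs. The 12 F1 pigs read 11.24, 12.25 and 12.90, and the 12 LW pigs 9.82, 11.12 and 11.81. Every LW pig read less than the CR mean and 4 read less than the lowest CR pig, while the other 8 lay inside the CR range. The difference was −1.21 ± 0.23 (SE), a level in LW of 0.433 times that in CR with a 95% interval of 0.314 to 0.597 (limma, adjusted p = 0.000387). All 9 ADIPOQ probes were called, with differences between −1.31 and −0.82. The probe shown above was among them (−0.88), with log2 intensities between 5.95 and 8.58. Within each of the 4 slides that hold all groups, the LW pigs were lower, by −1.64 to −0.50.

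Leptin, the hormone that reports fat stores to the brain, was not called in any comparison. Its leading probe read 6.89, 7.32 and 7.65 in CR, 6.94, 7.26 and 7.80 in F1 and 6.58, 7.19 and 7.67 in LW. The breeds overlapped throughout. For this probe, LW minus CR was −0.15, with a 95% interval of −0.38 to 0.09. Its reading also differed by slide: pigs on slide 2 read 6.58 to 7.15 and pigs on slide 3 read 7.22 to 7.80. The tested twin probe O15019 spanned only 5.52 to 5.87 over all 36 pigs. With group means taken off, its r to the leading LEP probe was 0.09. The LEP probes therefore do not settle whether leptin RNA differed between the breeds.

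PLIN1, the perilipin that coats the droplet of fat cells, read 8.91, 9.86 and 10.65 in CR, 9.08, 9.77 and 10.63 in F1 and 7.88, 8.66 and 9.48 in LW. Of the 12 LW pigs, 8 lay below the lowest CR pig. The difference between LW and CR was −1.20 ± 0.18, or 0.434 times the CR level (interval 0.336 to 0.561, limma, adjusted p = 2.4e-05). All 3 PLIN1 probes were called. The probe A_72_P077326, shown above, gave a smaller difference of −0.40, but it was near background (mean log2 intensity 5.55, well above background on 21 of 36 arrays) and passed the filter in 3 of 6 groups.

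CIDEA, a droplet protein best known from brown fat, had 1 probe on the array and the steepest difference of the 10 leading probes. It read 7.91, 9.40 and 10.09 in CR, 8.62, 9.31 and 9.87 in F1 and 6.95, 8.05 and 8.77 in LW. In LW, 5 pigs read less than the lowest CR pig, and the next CR pig read 8.69. LW lay below CR by −1.36 ± 0.21, or 0.39 times the CR level (interval 0.291 to 0.522, limma, adjusted p = 2.66e-05). Within the 4 slides it ran from −1.77 to −0.51, and PLIN1 from −1.36 to −0.89.

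CIDEC, which joins small droplets into large ones, read 9.32, 10.23 and 11.11 in CR, 9.54, 10.36 and 11.76 in F1 and 8.59, 9.48 and 10.39 in LW. The CR and LW ranges overlapped, with 4 LW pigs below the lowest CR pig. The LW mean differed by −0.79 ± 0.21 (limma, adjusted p = 0.0105). The other CIDEC probes, one of them the probe O9141 shown above, gave −0.46 and −0.47 and were not called (adjusted p = 0.0617 and 0.052).

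Among the lipases, LIPE (hormone-sensitive lipase) read 10.59, 11.25 and 11.83 in CR, 10.70, 11.32 and 11.99 in F1 and 10.45, 10.91 and 11.35 in LW. The shift was small beside the spread, and 2 LW pigs lay below the lowest CR pig. The breeds differed by −0.35 ± 0.12, called only just (limma, adjusted p = 0.0461, and between 0.0273 and 0.0615 over the other ways of processing). The call was lost when 1 of 17 pigs was left out: CR pigs 1, 3, 4 or 6 and LW pigs 1, 2, 3 or 6 at 24 °C, and CR pigs 2, 3, 4 or 6 and LW pigs 1, 3, 4, 5 or 6 at 30 °C, the highest adjusted p being 0.0887. Of 4 LIPE probes, 3 were called, at −0.37 to −0.35, of which the leading probe and A_72_P223552 share 58 bases. The fourth, A_72_P551986, shown above, read −0.04 (adjusted p = 0.752) and ran nearly flat over the pigs, from 8.01 to 8.56.

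PNPLA2 (adipose triglyceride lipase), which takes off the first fatty acid, read 11.79, 12.04 and 12.19 in CR, 11.64, 11.90 and 12.16 in F1 and 11.56, 11.79 and 11.94 in LW. In LW, each pig lay below the CR mean and 5 lay below the lowest CR pig. The difference was −0.25 ± 0.06 (limma, adjusted p = 0.00227), the smallest among the called leading probes. Neither PNPLA2 probe shown above was called: A_72_P178071 read −0.02 and A_72_P076816 0.10, in the opposite direction. With all 3 probes averaged the difference was −0.06 and the call was lost (adjusted p = 0.558), so the PNPLA2 call rests on 1 probe.

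LPL, the lipase on the vessel wall that feeds fat cells, was called in its other tested probes but not in its leading probe. The leading probe read 7.79, 9.21 and 10.49 in CR, 8.61, 9.44 and 10.65 in F1 and 7.34, 8.69 and 9.27 in LW. The LW and CR pigs overlapped, with 2 LW pigs below the lowest CR pig. The LPL difference was −0.61 ± 0.25 (limma, adjusted p = 0.0998), which became a call without CR pig 5 at 24 °C (adjusted p = 0.041) or without CR pig 5 at 30 °C (0.0487). The other 5 tested LPL probes were called lower in LW, between −1.23 and −0.47, of which A_72_P715658 and A_72_P732308 passed the filter in only 5 and 4 of 6 groups and lie near background. The probe at −1.23 is one that the array's annotation describes as LPL of the baboon Papio anubis. The mean of the 6 probes, those near background included, gave −0.79 (adjusted p = 0.00335). An untested probe, O15020, was well above background on 14 of 36 arrays.

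FABP4, the fatty acid carrier of fat cells, which capillary endothelium and macrophages also make, read 13.43, 13.99 and 14.87 in CR, 13.65, 14.38 and 14.94 in F1 and 13.64, 14.03 and 14.72 in LW. The 3 ranges overlapped almost whole. LW minus CR was −0.12, with a 95% interval of −0.41 to 0.18 (limma, adjusted p = 0.68). All 8 FABP4 probes lay below 0, from −0.56 to −0.07, and 1 was called: A_72_P496561, the dimmest, at −0.56 (adjusted p = 0.0216).

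PPARG, the nuclear receptor of fat cell formation, read 9.25, 9.69 and 10.34 in CR, 9.43, 9.70 and 10.19 in F1 and 9.17, 9.88 and 10.23 in LW. LW minus CR was −0.01, with a 95% interval of −0.27 to 0.24, and the 3 types overlapped throughout. The 4 PPARG probes, 3 of which overlap, gave −0.06 to 0.02 and none was called.

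**Figure D2:**
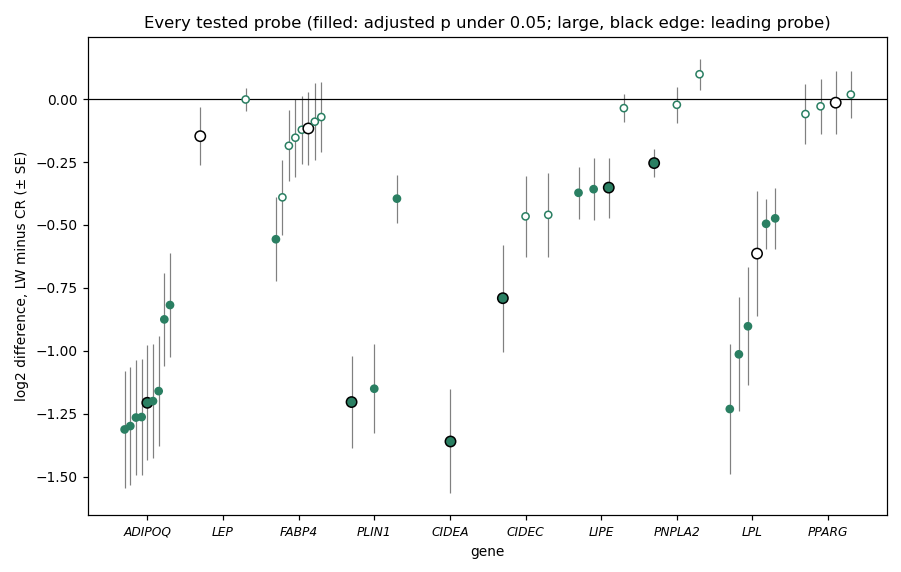
Difference between LW and CR (log2, vertical axis, ± SE) for each of the 43 tested probes, sorted within each gene (horizontal axis); filled points are called and large points with a black edge are leading probes. All 9 ADIPOQ and all 3 PLIN1 probes are filled and lie below 0, whereas 1 of 4 LIPE and 2 of 3 PNPLA2 probes are open and lie near 0. Among the filled points, a PLIN1 probe and a pair of LPL probes passed the brightness filter in only 3, 5 and 4 of 6 groups.

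In the F1 cross, 5 of the 10 leading probes were called higher than in Large White, and none was called against Creole or against the mean of the parents. Against LW, 24 of the 43 probes were called and all 24 were higher in F1, where 1.99% of all tested probes were called and 1.07% were called higher. Of the 24, 3 had passed the brightness filter in fewer than 6 groups, and without them 21 of 40 were called. This comparison and the one above share the LW pigs. By leading probe, 5 genes were called higher in F1, where 1.07% of named genes were: CIDEA at 1.31 ± 0.21 (limma, adjusted p = 0.000421), ADIPOQ at 1.25 ± 0.23 (0.00163), PLIN1 at 1.15 ± 0.18 (0.000421), CIDEC at 1.02 ± 0.21 (0.00555) and LPL at 0.98 ± 0.25 (0.0282). Within the 4 slides F1 lay above LW in each, by 0.46 to 2.15 in ADIPOQ and 0.53 to 1.71 in PLIN1. The LPL call was lost without F1 pig 1, LW pig 1 or LW pig 4, all at 30 °C, with adjusted p up to 0.0544. LIPE at 0.42 missed the threshold (adjusted p = 0.0563, and 0.0471 to 0.0717 under other ways of processing). It passed without 1 of 8 pigs: F1 pigs 1 or 3, LW pig 4 or CR pig 5 at 24 °C, and F1 pig 5, LW pig 2 or CR pigs 5 or 6 at 30 °C, with adjusted p down to 0.0328.

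Between F1 and CR, 0 of the 43 probes were called by limma and 0 had an unadjusted p under 0.05, where 3.38% of all tested probes were called and 17.2% had such a p. The 10 leading differences ran from −0.10 in PNPLA2 to 0.36 in LPL. For ADIPOQ the difference was 0.04 with a 95% interval of −0.42 to 0.51, and for CIDEA −0.05 with −0.47 to 0.37. Against the mean of both parent breeds, a contrast added after these values were seen, 40 of 43 probes were above 0, 29 had an unadjusted p under 0.05 (10.4% of all tested probes did) and 0 were called by limma (0.439% of all were). The leading probes lay 0.55 to 0.67 above that mean in ADIPOQ, PLIN1, CIDEC, CIDEA and LPL, each with a limma adjusted p between 0.119 and 0.181. Leaving out F1 pig 1 or 2 at 24 °C, or F1 pig 5 at 30 °C, gave 1, 2 and 1 called probes.

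**Figure D3:**
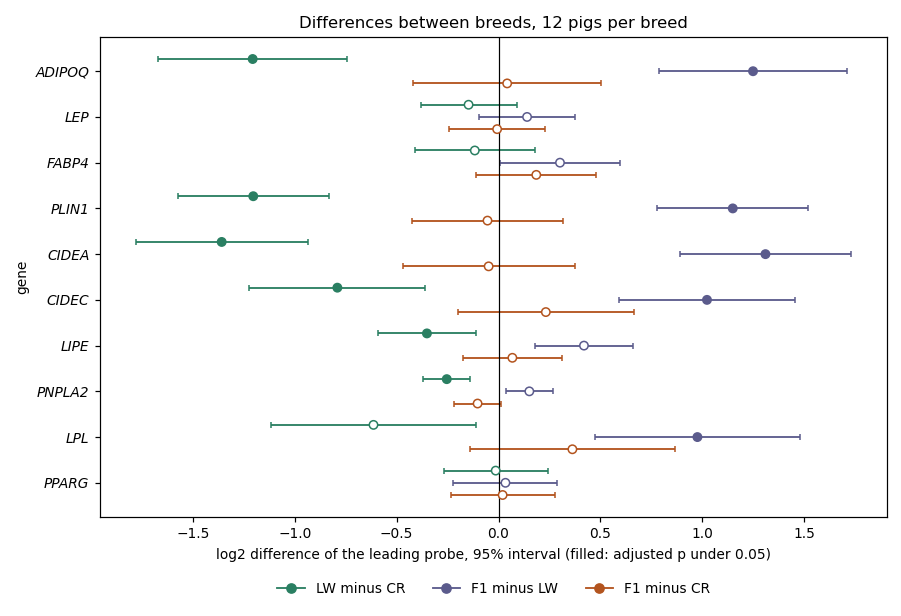
Log2 differences of the 10 leading probes (horizontal axis, with 95% intervals) for LW minus CR, F1 minus LW and F1 minus CR, 12 pigs per breed; filled points are called. In ADIPOQ, PLIN1 and CIDEA, LW lies more than 1 log2 unit below both other types, while every F1 minus CR interval includes 0.

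Between temperatures no adipocyte gene passed the test, and most differences of 30 °C against 24 °C lay below 0. With breed in the model, all 10 leading probes and 42 of the 43 probes lay below 0. None was called by limma, where 1.18% of all tested probes were called and 0.876% were called lower, and 19 of 43 had an unadjusted p under 0.05, against 9.74% of all tested probes. The median of the 10 leading differences was −0.32, and over all tested probes it was 0.01. The probes varied together from pig to pig, as described below, so they are not 42 separate readings. Leaving out CR pig 5 at 24 °C gave 3 called probes, CR pig 6 at 30 °C gave 2, and F1 pig 4 or LW pig 2 at 30 °C gave 1.

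LIPE came nearest to a call with temperature. Its leading probe read 10.78, 11.29 and 11.99 in the 18 pigs at 24 °C and 10.45, 10.97 and 11.58 in the 18 pigs at 30 °C, so that 6 hot pigs lay below the lowest 24 °C pig. The difference was −0.35 ± 0.10, or 0.785 times (interval 0.684 to 0.9, limma, adjusted p = 0.0722). It was −0.29 in CR, −0.33 in F1 and −0.43 in LW. It passed the threshold when CR pig 5 at 24 °C (adjusted p = 0.021), CR pig 6 at 30 °C (0.038) or F1 pig 4 at 30 °C (0.0428) was left out. The LIPE probe A_72_P551986 read −0.02 (adjusted p = 0.965). Within the 4 slides the difference ran from −0.84 to 0.01.

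LPL had the largest difference between temperatures, −0.53 ± 0.20 (limma, adjusted p = 0.307). In 16 of 18 hot pigs, LPL lay under the 24 °C average for that pig's breed. Its readings were 8.15, 9.21 and 10.49 at 24 °C and 7.34, 8.88 and 10.65 at 30 °C, the highest pig of all being a hot F1 pig. ADIPOQ differed by −0.41 ± 0.19 (adjusted p = 0.456), CIDEA by −0.36 (0.49), PLIN1 by −0.33 (0.446) and CIDEC by −0.30 (0.608). CIDEC, FABP4 (−0.21), PPARG (−0.11), PNPLA2 (−0.04) and LEP (−0.04) had intervals that include 0. Within slides, ADIPOQ ran from −1.16 to −0.06 and LPL from −1.41 to 0.02, with the lowest value of each on slide 4.

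Within breeds, no adipocyte probe was called with temperature (CR 0.387%, F1 0.383% and LW 0% of all tested probes called). Unadjusted p was under 0.05 for 11 probes in CR, 1 in F1 and 4 in LW, against 5.75%, 10.6% and 4.01% of all tested probes. The leading ADIPOQ probe read 11.34, 12.39 and 12.98 in CR at 24 °C and 10.75, 12.001 and 12.75 at 30 °C. In LW it read 10.51, 11.32 and 11.81 at 24 °C and 9.82, 10.70 and 11.41 at 30 °C, a difference of −0.63 with a 95% interval of −1.29 to 0.04. In F1 it read 11.40, 12.39 and 12.90 against 11.24, 12.21 and 12.70. PPARG was −0.41 in CR, 0.01 in F1 and 0.07 in LW. The breed by temperature interaction called 0 adipocyte probes and 0 of all tested probes, 0% (limma's F test). Its smallest unadjusted p among the leading probes was 0.115 in PPARG, and 0 adipocyte probes were under 0.05, against 4.67% of all tested probes.

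**Figure D4:**
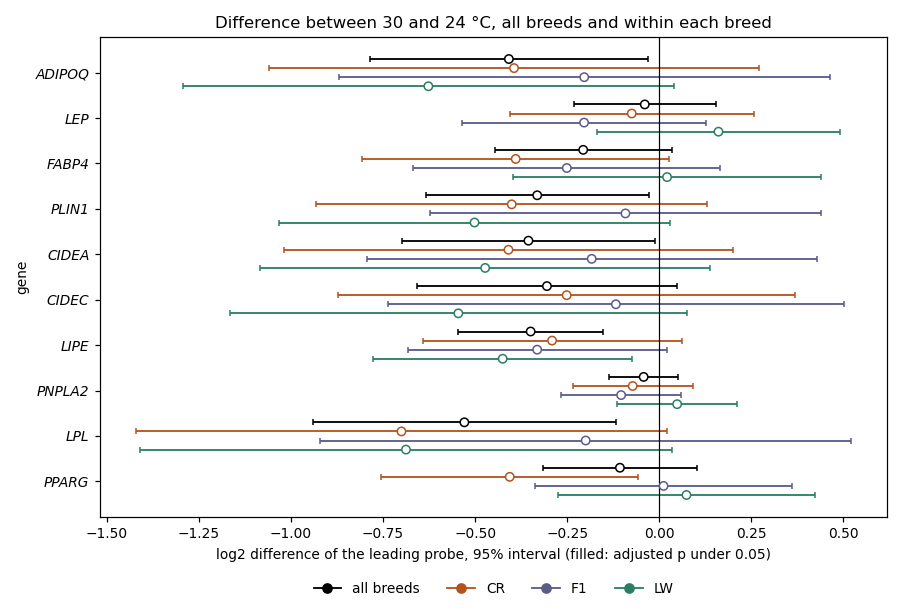
Log2 difference between 30 and 24 °C (horizontal axis, with 95% intervals) for the 10 leading probes over all breeds and within CR, F1 and LW; no point is filled since none was called. The values over all breeds lie left of 0 in each gene, nearest to 0 in LEP and PNPLA2, and the intervals of the 3 breeds overlap in every gene.

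From pig to pig, 7 of the 10 genes varied together. With the 6 group means taken off, ADIPOQ correlated over 36 pigs with CIDEA (Pearson's r = 0.97, Spearman's rho = 0.96), PLIN1 (0.93 and 0.93), LPL (0.87 and 0.86), CIDEC (0.85 and 0.86), FABP4 (0.81 and 0.81) and LIPE (0.71 and 0.68). PPARG (0.47 and 0.48) and PNPLA2 (0.41 and 0.47) had lower values and LEP negative ones (−0.31 and −0.29). These are descriptions, since all points come from 1 RNA sample per pig and share its array. Without the 2 pigs farthest from the ADIPOQ median, CR pig 5 at each temperature, r was 0.96 with CIDEA, 0.92 with PLIN1, 0.76 with FABP4 and 0.63 with LIPE. Among the 12 pigs of each breed, CIDEA stayed at 0.97, 0.95 and 0.98 (CR, F1, LW), FABP4 at 0.91, 0.85 and 0.61, and PPARG at 0.76, 0.76 and 0.01.

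These 7 genes are ADIPOQ and the genes with an r over 0.5 to it. A high r among them therefore follows in part from the choice. Their 21 pairs ranged from 0.53 to 0.97 with a median of 0.78. FABP4 and LIPE, whose breed differences were small, belonged to the 7. Some pairs with other genes also lay above 0.53: PPARG with FABP4 (0.60) and PNPLA2 with CIDEC (0.54). Over 10710 named genes, the r to ADIPOQ had a median of 0.01, and 1.07% exceeded 0.5. Of the first 12 places, 6 went to CIDEA, PLIN1, LPL, CIDEC, FABP4 and LIPE. The probes of 1 gene repeated each other to different degrees: the 36 pairs of ADIPOQ probes had a median r of 0.96, and the 6 pairs of LIPE probes ranged from −0.09 to 0.98. The LIPE probe A_72_P551986 had an r of 0.02 to ADIPOQ, against 0.71 to 0.77 for the other 3.

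**Figure D5:**
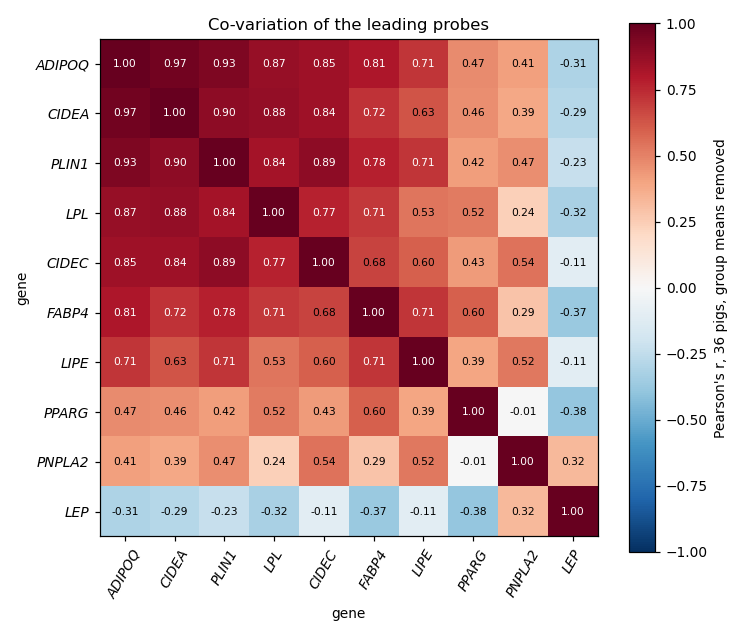
Pearson's r between the leading probes of the 10 adipocyte genes (both axes) over 36 pigs with the 6 group means taken off; colour and printed value give r. ADIPOQ and the genes chosen for an r over 0.5 to it (CIDEA, PLIN1, LPL, CIDEC, FABP4 and LIPE) read 0.53 and above among themselves. The LEP row is between −0.38 and 0.32, with slide means not taken off.

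Outside the 10 genes, the named genes most like ADIPOQ over the pigs were AGT (r = 0.85), UCP3 (0.83), ABCD2 (0.83), DGAT2 (0.78), CDO1 (0.73), AKR1C1 (0.73), NDN (0.71), CEBPA (0.70), ADORA1 (0.70) and NTRK2 (0.69). AGT encodes angiotensinogen, DGAT2 the enzyme of the last step of triglyceride synthesis, and CEBPA a transcription factor of fat cells. Of these 10, AGT, UCP3, ABCD2, DGAT2, AKR1C1 and CEBPA were called lower in LW than in CR, by −1.08 in UCP3 to −0.46 in CEBPA. AKR1C1 was also called with temperature (−0.51, limma, adjusted p = 0.0229).

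Enzymes of fatty acid and triglyceride synthesis were also lower in LW in most of those measured. Of 11 tested genes of this kind, 7 were called lower in LW than in CR and none higher, where 6.03% of named genes were called lower. The 7 were led by SCD, which makes fatty acids unsaturated (−1.48), ME1, malic enzyme (−1.25), and ELOVL6, which lengthens fatty acids (−1.19). Among the called genes, LPIN1 was called in only 1 of 7 tested probes, with 5 of the 7 below 0. FASN was called in 1 of 4 probes, with all 4 below 0. The same number, 7 of 11, were called higher in F1 than in LW, where 1.07% of named genes were. Between F1 and CR 0 of the 11 were called, where 3.24% of named genes were. With temperature 1 of the 11 was called, where 1.24% of named genes were: SCD, at −0.83 (limma, adjusted p = 0.0496). The median of the list was −0.64 between LW and CR, where the leading probes of all named genes had 0.00. The 7 called genes had an r to ADIPOQ of 0.46 to 0.78 over the pigs. Such enzymes are made in many cell types beside fat cells.

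Regulators were less uniform. Of 9 tested adipogenic transcription factors, 3 were called lower in LW, where 6.03% of named genes were: KLF15 (−0.65), CEBPA (−0.46) and RXRA (−0.31), the partner of PPARG. KLF15 and RXRA had an r to ADIPOQ of −0.21 and −0.34, and CEBPA one of 0.70. Only 1 of 3 CEBPA probes and 1 of 2 RXRA probes was called, and 1 CEBPA probe had the opposite sign. The other 6 factors were not called. Of 9 tested genes of the droplet and of lipolysis beside the 10, none was called lower, although 6 lay below 0, and MGLL, which splits monoglycerides, was called higher in LW (0.38). The other perilipins measured, named after their values were seen, did not pass: PLIN2, found on droplets in most cell types, was 0.23 (adjusted p = 0.687) and PLIN3 −0.20 (0.0708).

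Among 14 tested adipokines, receptors and genes of fatty acid uptake, 2 were called lower in LW, RBP4, the retinol carrier (−0.54), and SLC2A4, the insulin-responsive glucose transporter (−0.53), and LGALS12, a galectin of fat cells, was higher (0.58). Of named genes as a whole, 6.03% were called lower and 7.42% higher. The SLC2A4 call came from 1 of 4 probes, and 1 of the 4 had the opposite sign. LGALS12 was also higher in F1 than in CR (0.64, limma, adjusted p = 0.00962). The adiponectin receptors ADIPOR1 and ADIPOR2, also named after their values were seen, differed by −0.03 and −0.11 and were not called. Of 6 tested thermogenic genes, only UCP3 was called lower in LW (−1.08). Between F1 and LW, SLC2A4 (0.50) and UCP3 (1.21) were called higher in F1. The list medians between LW and CR were −0.09 for the transcription factors, −0.06 for the droplet genes, 0.00 for the adipokine and uptake genes and −0.11 for the thermogenic genes. With temperature, limma called 0 genes of these lists, and unadjusted p was under 0.05 for 1 of 9 transcription factors, 2 of 9 droplet genes, 2 of 14 adipokine and uptake genes and 1 of 6 thermogenic genes, where 9.74% of all tested probes had such a p. UCP1, the uncoupling protein of brown fat, was not measured here.

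Markers of other cell types were read beside these results, and their part in them was not tested. By leading probe, fibroblast and preadipocyte genes were called in 0 of 10 between LW and CR, although 3 of 11 LUM probes were called. The 10 genes had summed intensities of 55711 to 191718 in CR and 54165 to 159359 in LW. The r to ADIPOQ over the pigs was −0.40 in DPP4, −0.15 in LUM, −0.08 in DLK1 and 0.44 in DCN. It was 0.50 to 0.66 in COL1A1, COL1A2, COL3A1, PDGFRA, PDGFRB and PI16. Endothelial genes were called higher in LW in 3 of 6 (7.42% of named genes were), against the direction of the adipocyte genes: KDR (0.73), PECAM1 (0.35) and CDH5 (0.19). Of these, KDR was also higher in F1 than in CR (0.51). KDR was called in 1 of 3 probes, PECAM1 in 3 of 4 and CDH5 in 2 of 2. TEK, not called by its leading probe, was called in 2 of 4. The endothelial genes had a summed intensity of 24367 to 35697 in CR and 29401 to 40921 in LW. From pig to pig their r to ADIPOQ was above 0, from 0.09 in CDH5 to 0.51 in VWF, with 0.47 in KDR and 0.35 in PECAM1. Thyrocyte genes were called in 0 of 5, with sums of 381223 to 804033 in CR and 489704 to 755825 in LW, and TG had an r of 0.09 to ADIPOQ. Macrophage genes were called in 0 of 5 (summed intensity 3955 to 6742 in CR and 3171 to 5943 in LW) and skeletal muscle genes in 1 of 10, ACTA1, higher in LW (0.22), with 9 of its 17 probes on that side of 0. Genes of red cells (4 tested), thymus (3), C cells (3) and parathyroid (2) had 0 calls between LW and CR. Between F1 and LW, limma called none of the 3 C cell genes, but all 3 lay above 0 with an unadjusted p under 0.05. Of all tested probes, 13.4% had such a p in this comparison. The median of the 3 was 0.80, and their summed intensity was 21319 to 67607 in F1 and 10426 to 30493 in LW. Red cell genes were also not called, with 4 of 4 below 0, 3 of them at an unadjusted p under 0.05, and sums of 731 to 2597 in F1 and 857 to 3713 in LW. Between F1 and CR, limma again called 0 of the 3 C cell genes, and all 3 had an unadjusted p under 0.05, against 17.2% of all tested probes. The median there was 0.66. Their summed intensity in CR, 5759 to 71761, spanned the whole F1 range. The r to ADIPOQ was −0.41 in CALCB, −0.36 in CHGB and −0.30 in SCG2. With temperature, the haemoglobin gene HBB was lower at 30 °C (−1.004, limma, adjusted p = 0.00142), and its r to ADIPOQ was 0.13.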

How the data were processed

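Thyroid RNA of 36 pigs was hybridised on 1-colour Agilent arrays. The authors deposited each array's scanner output, with intensity per spot from Agilent Feature Extraction 10.10.1.1, and a table of log2 values, for which they read the median intensities with limma and quantile normalised them with preprocessCore (versions not given in the sources used here). The study's methods name Sscrofa11.1 for the annotation. No genome was used here, so no coordinates are reported. Here the median intensity of each spot was quantile normalised without background subtraction and log2 transformed, with 106 non-uniform spots set to missing. Repeat spots of a probe were averaged. Probes well above background on at least 5 of 6 arrays of a group (46222) were tested with limma 3.58.1 in R 4.3.3, on breed plus temperature, or on the 6 group means for single breeds and the interaction, with Benjamini-Hochberg adjustment. Against the deposited log2 table (46097 probes matched), these values were off by a median of 0.00556. Every adipocyte gene was named whatever its value; of each pathway list up to 3 genes with the largest called changes were named, and the 10 genes nearest to ADIPOQ. The genes and lists were chosen with earlier results of these data known. The pigs are numbered in order of deposit. Of the alternatives, scaling to the 75th percentile, the processed signal, normexp, other filters, the deposited values, slide or position as a block, the mean of a gene's probes and leaving out each pig were tried. The code was tested on simulated data. Replicates are pigs.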

Additional observations from a re-analysis of the deposited data

Results flagged for a closer look

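In 60 groups of 6 pigs (10 leading probes in 6 groups each), 2 had a pig set apart from the others by Dixon's ratio, where chance alone gives about 5%. Both were CR pig 5 at 30 °C. Its PLIN1 reading was 8.91, against 9.71 for the next pig and 10.03 for the highest, a gap of 0.72 of the range. Its CIDEA reading was 7.91, against 9.06 and 9.67, a gap of 0.651 of the range. The same pig had the lowest ADIPOQ reading of the CR pigs, 10.75. Without it, the differences between LW and CR were −1.28 in PLIN1, −1.47 in CIDEA and −1.32 in ADIPOQ.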

How the results depend on the processing

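Of 512 values set against another way of processing, 498 were kept. The difference of a gene was kept when its direction and its side of the threshold stayed. A count of called probes was kept when it changed little and did not move from or to 0. A correlation was kept when its sign stayed and it moved by less than its SD between the breeds. The number of called adipocyte probes was 22 to 25 for LW against CR and 21 to 26 for F1 against LW, and 0 for F1 against CR, for temperature over and within breeds, for the interaction and for F1 against the mean of both breeds. Leaving out 1 pig at a time, it was 22 to 28, 22 to 27, 0 for F1 against CR, 0 to 3 for temperature over the breeds and 0 to 2 for F1 against the mean of both breeds.

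Differences near 0 changed sign. PPARG between F1 and CR was −0.0066 on the processed signal and −0.010 as the mean of its probes, and LEP with temperature was 0.00065 as the mean of its probes. Leaving out 1 pig, F1 minus CR ran from −0.069 to 0.14 in ADIPOQ, −0.16 to 0.023 in CIDEA, −0.054 to 0.027 in LEP, −0.13 to 0.025 in PLIN1 and −0.023 to 0.068 in PPARG, and PPARG ran from −0.026 to 0.073 in F1 minus LW and from −0.057 to 0.046 in LW minus CR. The cause was not tested.

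The LIPE call between LW and CR was lost on the processed signal (adjusted p = 0.0615), without the filter on dim probes (0.0568) and with slide as a fixed block (0.0547). LIPE between F1 and LW was called after scaling to the 75th percentile (0.0471), with normexp (0.0477) and with slide as a random block (0.0491). Of 160 values within slides, 35 moved by over 1 SD. No paired analysis was possible, since each pig gave 1 array. The study's methods arranged the pigs in blocks of littermates, but the litter was not in the labels and could not be used. Dim probes (LEP O15019, PLIN1 A_72_P077326 and a pair of LPL probes) lie near background, which limits the differences they can show.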
